A study of Mus musculus with 20 samples.

Results

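The 10 circadian clock genes described here were read across kidneys of mice with cisplatin injury, with and without oral 7-HCG. They are Arntl, Clock, Npas2, Per1, Per2, Per3, Nr1d1, Nr1d2, Dbp and Ciart, taken by gene symbol from the deposited count table, and all 10 of them, among 25638 genes in all, were found and passed the filter on low counts. Polyadenylated mRNA of whole kidneys was sequenced from 20 male C57BL/6J mice of 6 to 8 weeks, 5 in each of 4 groups. The groups were 7-HCG at 30 mg/kg plus cisplatin, 7-HCG at 15 mg/kg plus cisplatin, cisplatin with oral phosphate-buffered saline, and control with oral phosphate-buffered saline and a saline injection. 7-HCG or the vehicle was given once a day for 5 days. Cisplatin, a platinum drug that injures the proximal tubule, was injected into the abdomen at 10 mg/kg on day 3, and the kidneys were taken 72 h later. No group received 7-HCG without cisplatin, so its effect without injury was not measured. The labels state an alternation of light and dark of 12 h each and give no clock hour of kidney collection for any animal, so group and clock hour cannot be told apart. Males of 1 strain and age range were studied.

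The mammalian clock is a feedback loop of transcription factors that runs in nearly every cell, the kidney tubule included. CLOCK or its relative NPAS2 pairs with BMAL1, the product of Arntl, and the pair binds E-box motifs and activates the Per and Cry genes, whose proteins in turn repress the pair. The nuclear receptors REV-ERBα and REV-ERBβ, encoded by Nr1d1 and Nr1d2, repress Arntl through ROR elements, and DBP, a factor of the PAR bZIP family, acts through D-boxes on clock outputs. CIART, also known as CHRONO, is a repressor of the CLOCK-BMAL1 pair. In kidney, many transporters and sodium handling genes are known to cycle with the time of day.

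Motifs of this loop and the cAMP and glucocorticoid response elements were searched in the promoters of the genes, on both strands. The windows were RefSeq sequences of 300 bases on GRCm38.p6, from 250 bases before to 50 bases after each annotated start. Windows were found for 9 of the 10 genes, 13 windows in all, with Per2 the gene without one. Clock had 3 windows, and Per1 and Arntl had 2 each. A gene is named where any of its windows held the motif, while each percentage is a share of single windows, so the 2 are unlike measures. The E-box CACGTG was found in the windows of Per1 and Ciart, against 7.15% of 32851 mouse promoters of the same length. The D-box TTATGNAA was found in Per1 and Per3 (3.38% of promoters). The ROR element core AGGTCA was found in Per1, Arntl, Clock and Nr1d2 (16.3%), and the E-prime box CACGTT in Nr1d1 (4.68%). The cAMP response element core TGACG was found in Per1 (20.8%). No 2 matches overlapped, and a match is a stretch of letters, not a measured binding site. The windows that follow are those of Per1, the gene that rose with cisplatin, of Per3 with its pair of D-boxes, of Arntl with its ROR core and of Ciart with its 3 E-boxes, 5′ to 3′ on the strand of the gene, with motif letters in capitals. In the Per1 window, chr11:69098699-69098998 on the plus strand, the capitals mark TGACG, the E-box, the reverse complement of the ROR core and the D-box, in that order. The Per3 window is chr4:151044616-151044915 on the minus strand, that of Arntl chr7:113207261-113207560 on the plus strand, and that of Ciart chr3:95882179-95882478 on the minus strand.
Per1: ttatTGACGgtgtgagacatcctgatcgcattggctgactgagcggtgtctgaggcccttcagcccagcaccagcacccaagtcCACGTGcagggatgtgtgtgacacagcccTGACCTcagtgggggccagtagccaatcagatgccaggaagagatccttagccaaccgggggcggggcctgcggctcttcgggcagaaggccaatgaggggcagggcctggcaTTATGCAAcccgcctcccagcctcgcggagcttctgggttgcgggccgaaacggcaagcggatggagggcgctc
Per3: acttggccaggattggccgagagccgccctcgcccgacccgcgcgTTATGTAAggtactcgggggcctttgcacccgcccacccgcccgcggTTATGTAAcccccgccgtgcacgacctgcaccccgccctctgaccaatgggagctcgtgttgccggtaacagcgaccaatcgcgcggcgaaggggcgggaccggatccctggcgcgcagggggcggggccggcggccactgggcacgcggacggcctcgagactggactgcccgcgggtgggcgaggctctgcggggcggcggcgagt
Arntl: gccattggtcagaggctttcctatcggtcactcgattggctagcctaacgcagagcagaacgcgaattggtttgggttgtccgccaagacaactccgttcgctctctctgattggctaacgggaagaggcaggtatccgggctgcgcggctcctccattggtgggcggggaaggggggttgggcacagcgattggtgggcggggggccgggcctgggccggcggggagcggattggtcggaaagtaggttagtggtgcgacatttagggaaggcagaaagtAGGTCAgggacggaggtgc
Ciart: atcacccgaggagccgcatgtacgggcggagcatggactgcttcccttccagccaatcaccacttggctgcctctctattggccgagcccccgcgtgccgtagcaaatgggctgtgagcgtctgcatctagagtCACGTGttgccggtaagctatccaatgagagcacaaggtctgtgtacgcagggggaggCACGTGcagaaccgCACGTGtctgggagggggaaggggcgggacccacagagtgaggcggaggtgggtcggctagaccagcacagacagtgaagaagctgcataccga

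Libraries held 10714532 to 49602115 counts. The 13 mitochondrially encoded mRNAs took 5.12% to 8.01% of counts at 30 mg/kg, 3.04% to 7.38% at 15 mg/kg, 16.6% to 77.7% in cisplatin and 24.6% to 45.5% in control, and cisplatin replicates 9 and 10 stood apart at 77.7% and 70.6%. With these 13 mRNAs left out, all 16 calls made on the 10 genes were kept and none was gained. Levels are given as CPM, read counts relative to library sizes scaled by TMM (trimmed mean of M values). The TMM factors were 0.382 and 0.429 in cisplatin replicates 9 and 10 and 0.910 to 1.40 in all other libraries. A low factor raises every CPM of its library. Each ± beside a level is the SD over the 5 animals of the group. Differences are log2 fold changes with their standard error (SE) from edgeR's quasi-likelihood test on all 20 libraries. A gene is said to rise or fall where its p, adjusted by Benjamini-Hochberg over 14858 genes, was below 0.05. The libraries carried the defining markers of kidney, with summed levels of 6 proximal tubule markers of 3352 to 10782 CPM at 30 mg/kg, 3304 to 7103 CPM at 15 mg/kg, 1387 to 3325 CPM in cisplatin and 1820 to 5017 CPM in control. In whole tissue, fewer cells of a type and less RNA per cell cannot be told apart.

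Across the 60 values that the 10 genes gave in 6 comparisons, 16 passed the test, 15 of them lower in the animals given 7-HCG and 1, Per1, higher with cisplatin. With cisplatin, 1 of the 10 genes rose against control, where 8.41% of all genes tested rose and 13.4% passed in either direction. At 15 mg/kg against cisplatin 5 of 10 fell (Arntl, Clock, Npas2, Per1 and Per2), where 18.6% of all genes fell and 37.5% passed in either direction. At 30 mg/kg against cisplatin 2 of 10 fell (Per1 and Per2), where 13.2% of all genes fell and 27.9% passed. Against control, 5 of 10 fell at 15 mg/kg (Arntl, Clock, Per2, Per3 and Nr1d2), where 22.2% of all genes fell and 45.2% passed. Against control, 3 of 10 fell at 30 mg/kg (Per2, Per3 and Nr1d2), where 15.6% fell and 34.2% passed. No clock gene rose in any comparison of 7-HCG. By separation of the libraries, all 5 of 30 mg/kg lay below all 5 of cisplatin for 1 of 10 genes (7.63% of all genes) and those of 15 mg/kg for 4 (9.57%). Against control, 30 mg/kg lay below for 2 (12.7%), 15 mg/kg below for 3 (16.7%) and above for 1 (16.2%), and cisplatin above for 1 (5.88%). The median log2 fold change of the 10 genes was −0.73 at 30 mg/kg against cisplatin (0.00 over all genes tested), −1.13 at 15 mg/kg against cisplatin (−0.05), −0.60 at 30 mg/kg against control (0.01), −0.91 at 15 mg/kg against control (−0.06) and 0.40 in cisplatin against control (−0.01). The comparisons with cisplatin share the 5 cisplatin libraries, and those with control the 5 control libraries, so their values are not independent of each other.

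**Figure D1:**
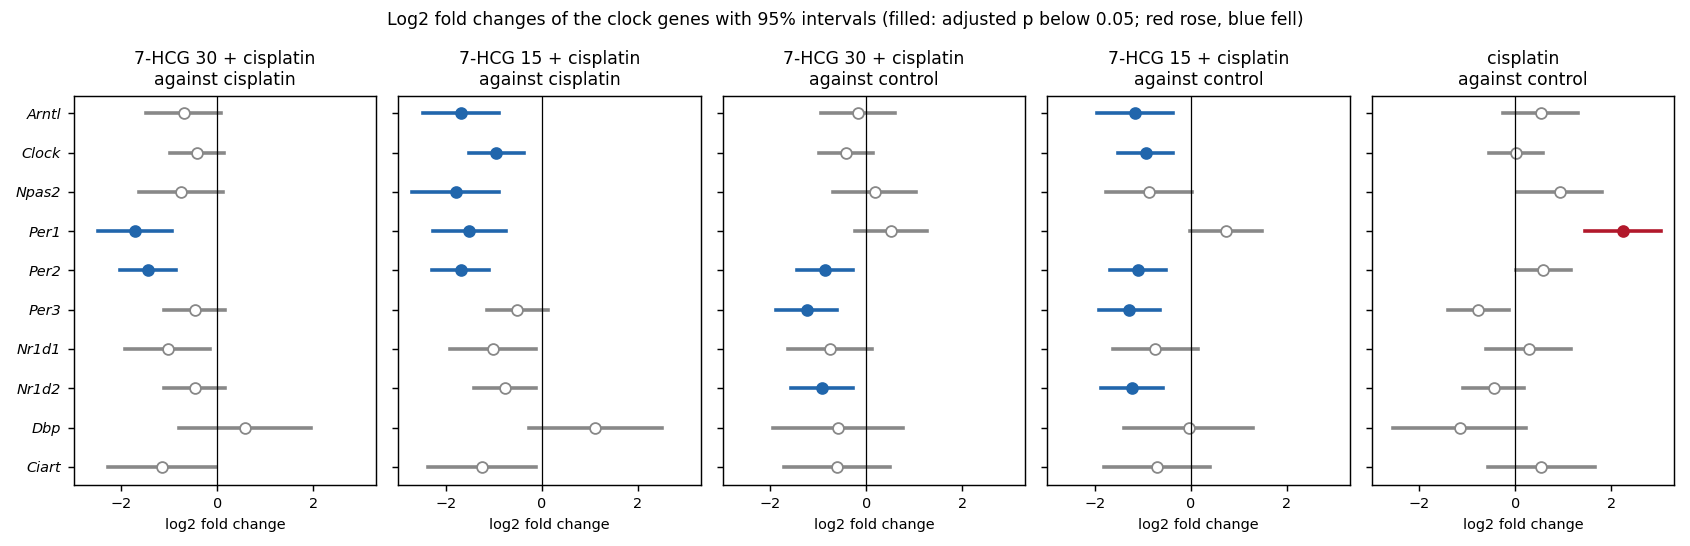
Log2 fold change (horizontal axis) of each clock gene (rows) in 5 comparisons (panels), with its 95% interval from the edgeR fit; filled points passed the adjusted p threshold of 0.05, in red where the gene rose and in blue where it fell. The 1 red point is Per1 with cisplatin at 2.24, and Per2 is the 1 gene filled in all 4 panels of 7-HCG.

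Cell type markers moved with the same comparisons. Against control, all 4 endothelial markers fell at both doses (summed levels of 20.9 to 124 CPM at 30 mg/kg, 39.8 to 101 CPM at 15 mg/kg, 59.7 to 207 CPM in cisplatin and 166 to 642 CPM in control). All 4 fibroblast and mural markers fell at both doses as well (66.2 to 253, 86.8 to 257, 88.4 to 380 and 300.01 to 730 CPM in the same order of groups), and so did all 3 T and NK cell markers and all 4 red blood cell markers, the same lists falling by 3 of 4, 3 of 4, 3 of 3 and 4 of 4 with cisplatin. Against cisplatin, 5 of 6 proximal tubule markers rose at each dose. Adipose markers summed to 511 and 2195 CPM in control replicates 2 and 5 and to 60.9 to 105 CPM in the other control libraries, and 15 mg/kg replicate 5 (199.9 CPM) and 30 mg/kg replicate 6 (222 CPM) were the highest of their groups. Of 3 podocyte markers 2 fell with cisplatin. The neutrophil markers S100a8 and S100a9 rose with cisplatin, with a summed level of 1.10 to 32.1 CPM in cisplatin and 0.532 to 1.24 CPM in control and with Ly6g at 0 in every library. Cisplatin replicates 9 and 10 held 10.5 and 32.1 CPM of that sum and the other 3 libraries 1.10 to 2.65 CPM, and both markers fell against cisplatin at 30 mg/kg (median log2 fold change −3.22) and at 15 mg/kg (−2.91). The part of these shifts in the clock gene values was not tested, apart from the fits without the libraries of high adipose or mitochondrial content given beside the results.

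Among the activators, Arntl (chromosome 7, 113207465 to 113314126, plus strand) encodes BMAL1, the partner of CLOCK and of NPAS2 in the loop. Its level from the lowest to the highest library was 4.01, 5.83, 6.86, 6.99 and 7.87 CPM at 30 mg/kg, 1.70, 2.49, 3.21, 4.14 and 4.35 CPM at 15 mg/kg, 5.76, 8.48, 10.4, 10.8 and 16.1 CPM in cisplatin, and 3.11, 3.13, 6.03, 9.12 and 14.2 CPM in control. All 5 libraries at 15 mg/kg lay below all 5 cisplatin libraries, while the control libraries overlapped with every other group. Arntl fell at 15 mg/kg against cisplatin by 1.68 ± 0.39 on the log2 scale (adjusted p = 0.00245), to 3.18 ± 1.11 CPM at 15 mg/kg, against 10.3 ± 3.81 CPM in cisplatin. At 30 mg/kg it averaged 6.31 ± 1.48 CPM, a difference of −0.70 ± 0.38 from cisplatin that did not pass (adjusted p = 0.167). Against control, Arntl also fell at 15 mg/kg (log2 fold change −1.16 ± 0.38, adjusted p = 0.0175, control 7.11 ± 4.67 CPM). That call rested on control replicates 2 and 5, the libraries of high adipose markers, which held the highest Arntl of the group. Without replicate 5 the difference was −0.75 (adjusted p = 0.0972), and without both −0.35 (adjusted p = 0.469). Scaled by library totals only, the fall against cisplatin was −1.23 (adjusted p = 0.0608).

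Clock (chromosome 5, 76209868 to 76304792, minus strand), the histone acetyltransferase partner of BMAL1, was the steadiest of the 10 genes in animals without 7-HCG. Its levels were 7.09, 18.2, 21.8, 23.2 and 35.6 CPM at 30 mg/kg, 8.70, 14.5, 15.2, 15.8 and 19.4 CPM at 15 mg/kg, 25.6, 26.3, 26.8, 29.6 and 33.6 CPM in cisplatin, and 26.5, 26.8, 27.4, 30.4 and 30.4 CPM in control. The libraries at 15 mg/kg lay below every cisplatin and every control library. The SD of log2 CPM was 0.86 at 30 mg/kg, 0.43 at 15 mg/kg, 0.16 in cisplatin and 0.10 in control, where the median gene had 0.37, 0.43, 0.49 and 0.35 in the same order. Clock fell at 15 mg/kg against cisplatin (−0.95 ± 0.28, adjusted p = 0.0108) and against control (−0.94 ± 0.27, adjusted p = 0.00869), to 14.7 ± 3.85 CPM at 15 mg/kg, against 28.4 ± 3.28 CPM in cisplatin and 28.3 ± 1.97 CPM in control. With library totals only these differences were −0.67 (adjusted p = 0.234) and −1.04 (adjusted p = 0.0521). Without the 4 libraries of high adipose markers the difference from control was −0.73 (adjusted p = 0.0667). Cisplatin and control differed by 0.00 in log2 (95% interval −0.56 to 0.57).

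Npas2 (chromosome 1, 39193731 to 39363236, plus strand), which can take the place of Clock, was among the genes of lowest level. It measured 1.10, 2.91, 3.10, 4.31 and 6.41 CPM at 30 mg/kg, 1.09, 1.32, 1.47, 2.13 and 2.65 CPM at 15 mg/kg, 3.27, 3.75, 5.26, 8.17 and 9.64 CPM in cisplatin, and 1.82, 1.87, 2.54, 4.07 and 5.48 CPM in control. As with Arntl, the libraries at 15 mg/kg lay below all cisplatin libraries and the 2 highest control libraries were replicates 2 and 5. Npas2 fell at 15 mg/kg against cisplatin by 1.80 ± 0.44 on the log2 scale (adjusted p = 0.00362), to 1.73 ± 0.65 CPM at 15 mg/kg, against 6.02 ± 2.79 CPM in cisplatin. The differences of 30 mg/kg from cisplatin (−0.75 ± 0.42, adjusted p = 0.186) and of cisplatin from control (0.92 ± 0.43, adjusted p = 0.158) did not pass.

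**Figure D2:**
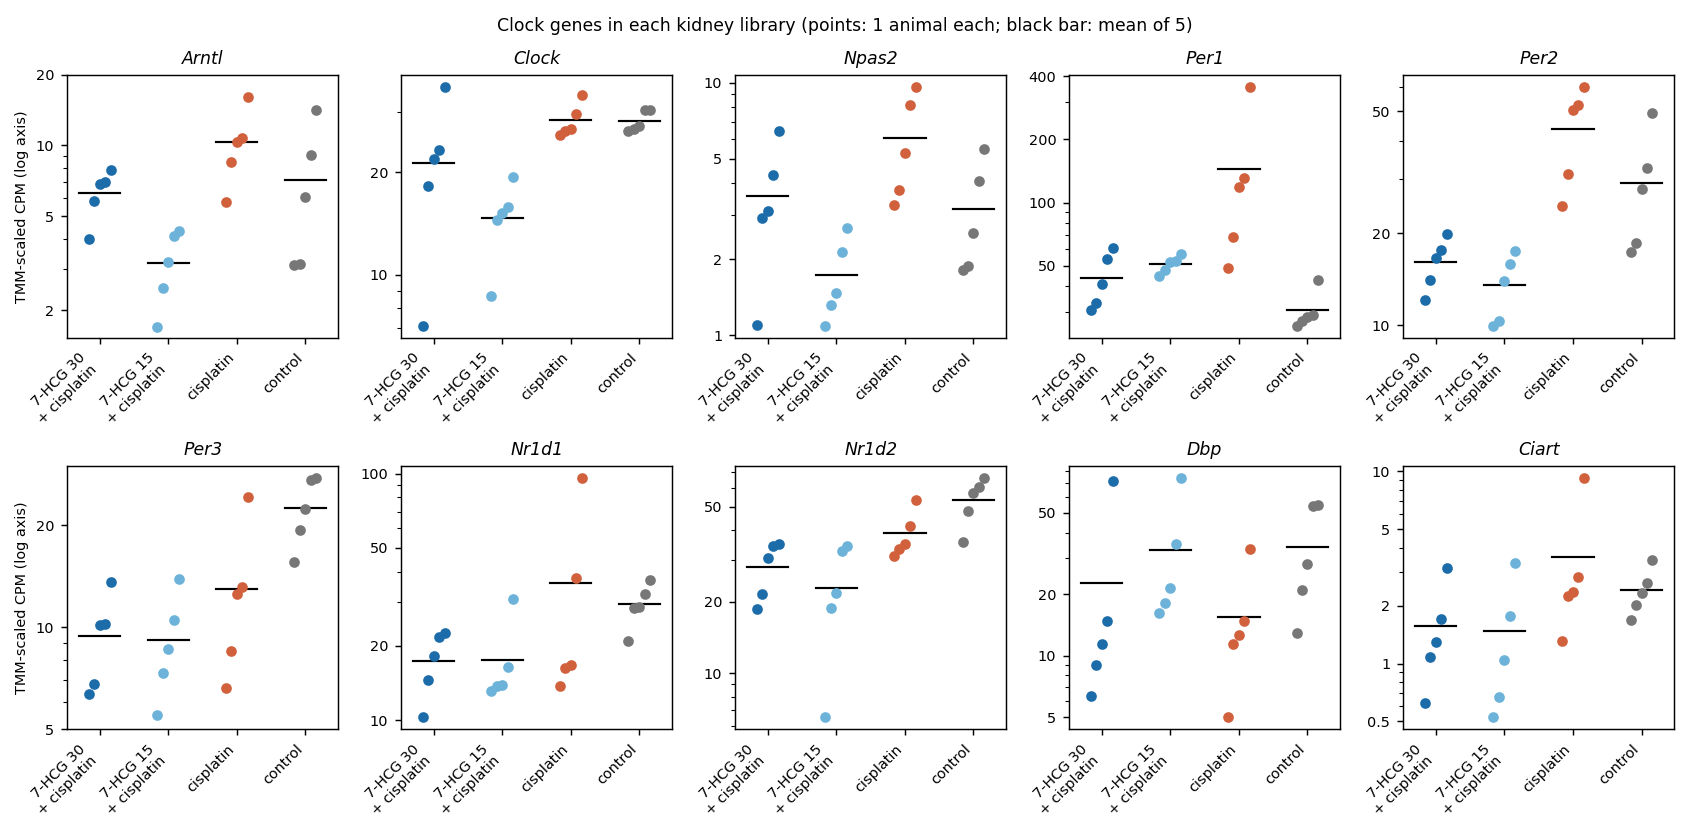
TMM-scaled CPM (vertical log axis) of the 10 clock genes in each of 20 kidneys; a point is 1 animal, a black bar the mean of 5, and groups run from 7-HCG 30 mg/kg to control. Per1 in cisplatin reaches 357 CPM in 1 animal, Per2 at both doses lies below all cisplatin animals, and Dbp spans 6.33 to 72.0 CPM at 30 mg/kg.

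The period genes encode the repressor arm, and the 3 of them did not move alike. Per1 (chromosome 11, 69095217 to 69109960, plus strand) is also known as an immediate responder to glucocorticoids and cAMP. Its levels were 30.7, 33.4, 40.8, 53.8 and 61.0 CPM at 30 mg/kg, 44.8, 47.9, 52.2, 52.5 and 56.9 CPM at 15 mg/kg, 48.7, 68.6, 119, 132 and 357 CPM in cisplatin, and 25.8, 27.2, 28.5, 29.0 and 42.7 CPM in control. Every cisplatin library lay above every control library, and the libraries at 15 mg/kg formed the tightest group of any clock gene apart from Clock in control, with an SD of log2 CPM of 0.13. Per1 rose with cisplatin by 2.24 ± 0.38 on the log2 scale (adjusted p = 0.00242, 4.72-fold). It fell against cisplatin by 1.72 ± 0.37 at 30 mg/kg (adjusted p = 0.00291) and by 1.51 ± 0.37 at 15 mg/kg (adjusted p = 0.00379). The means were 43.9 ± 13.1 CPM at 30 mg/kg, 50.8 ± 4.63 CPM at 15 mg/kg, 145 ± 124 CPM in cisplatin and 30.6 ± 6.83 CPM in control.

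Cisplatin replicates 9 and 10, of high mitochondrial share, held 119 and 357 CPM of Per1. Without both libraries the log2 fold change of cisplatin over control was 1.40 (adjusted p = 0.0166), that of 30 mg/kg over cisplatin −0.93 (adjusted p = 0.0313) and that of 15 mg/kg over cisplatin −0.68 (adjusted p = 0.0798), which no longer passed. With library totals only the last of these was −0.88 (adjusted p = 0.0634). Against control, Per1 at 15 mg/kg lay higher in every library, by 0.73 ± 0.36, and did not pass (adjusted p = 0.104). It passed without cisplatin replicate 10, at 0.74 with an adjusted p of 0.0177, and over alternatives the adjusted p ran from 0.00494 to 0.362.

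Per2 (chromosome 1, 91415982 to 91459324, minus strand), whose protein binds cryptochrome to repress the activators, was the gene that fell in all 4 comparisons of 7-HCG. It measured 12.1, 14.1, 16.7, 17.7 and 19.9 CPM at 30 mg/kg, 9.95, 10.3, 14.0, 15.9 and 17.5 CPM at 15 mg/kg, 24.5, 31.1, 50.5, 52.4 and 60.3 CPM in cisplatin, and 17.3, 18.6, 27.9, 32.8 and 49.4 CPM in control. All 10 animals given 7-HCG lay below all 5 cisplatin animals, and the 2 lowest control animals overlapped with them. Against cisplatin, Per2 fell by 1.44 ± 0.28 at 30 mg/kg (adjusted p = 0.00162) and by 1.69 ± 0.29 at 15 mg/kg (adjusted p = 0.000311), with means of 16.1 ± 3.03, 13.5 ± 3.35 and 43.8 ± 15.2 CPM at 30 mg/kg, at 15 mg/kg and in cisplatin. Against control (29.2 ± 13.0 CPM) it fell by 0.86 ± 0.28 at 30 mg/kg (adjusted p = 0.0228) and by 1.11 ± 0.28 at 15 mg/kg (adjusted p = 0.00384). Both falls at 15 mg/kg kept their call in all 32 alternatives. The fall at 30 mg/kg against control did not pass without control replicate 1 (−0.59, adjusted p = 0.103), without 30 mg/kg replicate 5 (−0.77, adjusted p = 0.064) or with library totals only (−0.77, adjusted p = 0.17), and the fall at 30 mg/kg against cisplatin was −1.09 with library totals only (adjusted p = 0.0635). With cisplatin alone Per2 differed from control by 0.58 ± 0.28 (adjusted p = 0.173).

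Per3 (chromosome 4, 151003652 to 151044665, minus strand), the period gene least needed for rhythm in mice, fell against control at both doses. Its levels were 6.37, 6.80, 10.1, 10.2 and 13.6 CPM at 30 mg/kg, 5.50, 7.34, 8.64, 10.5 and 13.9 CPM at 15 mg/kg, 6.63, 8.51, 12.5, 13.1 and 24.2 CPM in cisplatin, and 15.6, 19.4, 22.3, 27.1 and 27.6 CPM in control. Neither dose overlapped with control, and both overlapped with cisplatin. The fall against control was −1.25 ± 0.31 at 30 mg/kg (adjusted p = 0.00502) and −1.28 ± 0.31 at 15 mg/kg (adjusted p = 0.00268). The second kept its call in all 32 alternatives and the first in 31, with −1.20 (adjusted p = 0.0658) under library totals only. Cisplatin against control gave −0.77 ± 0.31 (adjusted p = 0.1), and without cisplatin replicate 6, the library at 24.2 CPM, −1.12 (adjusted p = 0.0187). The differences from cisplatin were −0.48 ± 0.31 at 30 mg/kg and −0.51 ± 0.31 at 15 mg/kg and did not pass.

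Of the nuclear receptor repressors, Nr1d2 (chromosome 14, 18204054 to 18239127, minus strand), which encodes REV-ERBβ, measured 18.7, 21.5, 30.5, 34.2 and 34.8 CPM at 30 mg/kg, 6.54, 18.8, 21.7, 32.6 and 34.3 CPM at 15 mg/kg, 30.9, 33.1, 34.9, 41.6 and 53.2 CPM in cisplatin, and 35.6, 47.7, 56.8, 60.2 and 66.0 CPM in control. All 10 libraries of 7-HCG lay below the lowest control library, and the cisplatin libraries overlapped with every other group. Nr1d2 fell against control by 0.93 ± 0.31 at 30 mg/kg (adjusted p = 0.0252) and by 1.22 ± 0.31 at 15 mg/kg (adjusted p = 0.00385). The fall at 15 mg/kg kept its call in all 32 alternatives. That at 30 mg/kg did not pass without 30 mg/kg replicate 1 (−0.81, adjusted p = 0.064), without 30 mg/kg replicate 5 (−0.84, adjusted p = 0.0666) or with library totals only (−0.87, adjusted p = 0.159). Against cisplatin the differences were −0.47 ± 0.31 at 30 mg/kg (adjusted p = 0.255) and −0.77 ± 0.31 at 15 mg/kg (adjusted p = 0.0557).

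Nr1d1 (chromosome 11, 98767932 to 98775333, minus strand), which encodes REV-ERBα, passed in none of the 6 comparisons. It ranged over 10.3 to 22.5 CPM at 30 mg/kg, 13.1 to 30.9 CPM at 15 mg/kg, 13.7 to 96.1 CPM in cisplatin and 21.0 to 37.0 CPM in control. Within cisplatin, replicates 9 and 10 stood at 37.8 and 96.1 CPM and the other 3 libraries at 13.7 to 16.7 CPM, below every control library. Both replicates carried low TMM factors, which raise these values. With library totals only, cisplatin over control was −0.61 in log2 (adjusted p = 0.336). The log2 fold change of cisplatin over control was 0.28 ± 0.42 with all libraries (adjusted p = 0.71) and turned to −0.96 without those 2 (adjusted p = 0.0707). In the same fit without them, Nr1d1 was lower than control by −0.80 at 30 mg/kg (adjusted p = 0.0184) and −0.74 at 15 mg/kg (adjusted p = 0.0205), against −0.76 ± 0.42 (adjusted p = 0.169) and −0.75 ± 0.42 (adjusted p = 0.157) with all libraries. Nr1d1 shares 263 of 3077 exon bases with Thra on the opposite strand, and the strand setting of the counting is not given in the sources used here. Thra passed in no comparison.

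Dbp and Ciart are direct E-box targets of the activators and were the most variable of the 10 genes. Dbp (chromosome 7, 45705088 to 45710203, plus strand) measured 6.33, 8.95, 11.4, 14.8 and 72.0 CPM at 30 mg/kg, 16.2, 18.1, 21.5, 35.0 and 74.3 CPM at 15 mg/kg, 4.98, 11.4, 12.6, 14.7 and 33.4 CPM in cisplatin, and 12.9, 20.9, 28.0, 54.1 and 54.5 CPM in control. The groups overlapped throughout, with 1 animal at 30 mg/kg and 1 at 15 mg/kg above all controls. Its SD of log2 CPM pooled over groups was 1.05, the highest of the 10 genes, against 0.45 for the median gene tested. The log2 fold changes were −1.16 ± 0.66 in cisplatin against control (adjusted p = 0.259), 1.11 ± 0.66 at 15 mg/kg against cisplatin (adjusted p = 0.189) and 0.58 ± 0.65 at 30 mg/kg against cisplatin (adjusted p = 0.535). Without 30 mg/kg replicate 1, the library at 72.0 CPM, Dbp fell against control at 30 mg/kg (−1.71, adjusted p = 0.0268), while with all libraries the difference was −0.59 ± 0.65 (adjusted p = 0.498). Without that library the difference from cisplatin turned to −0.55. Dbp shares 539 of 2993 exon bases with Sphk2 on the opposite strand. Sphk2 rose against control at 30 mg/kg by 0.70 ± 0.20 (adjusted p = 0.0125), at 15 mg/kg by 0.98 ± 0.20 (adjusted p = 0.00094) and with cisplatin by 0.73 ± 0.20 (adjusted p = 0.0234), so its share of the Dbp counts cannot be told apart from Dbp itself.

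Ciart (chromosome 3, 95878503 to 95882251, minus strand) was the gene of fewest counts, 17 to 134 per library. It ranged over 0.62 to 3.12 CPM at 30 mg/kg, 0.52 to 3.36 CPM at 15 mg/kg, 1.31 to 9.26 CPM in cisplatin and 1.68 to 3.45 CPM in control, and passed in none of the comparisons. The log2 fold changes were −1.15 ± 0.54 at 30 mg/kg (adjusted p = 0.114) and −1.24 ± 0.55 at 15 mg/kg (adjusted p = 0.0767) against cisplatin, where cisplatin replicate 10 held the 9.26 CPM. Without cisplatin replicates 9 and 10 these were −0.41 and −0.47. Without 15 mg/kg replicate 3, the library at 3.36 CPM, Ciart passed at 15 mg/kg against cisplatin (−1.79, adjusted p = 0.0184). Against control the 95% intervals reached from −1.72 to 0.49 at 30 mg/kg and from −1.81 to 0.40 at 15 mg/kg.

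Between the doses, none of the 10 genes passed, and neither did any of the 14858 genes (0.0%), while 1 passed with DESeq2. In edgeR 1066 had an unadjusted p below 0.05, where chance alone puts a share of about 0.05 of the genes tested. The largest differences of 30 mg/kg over 15 mg/kg among the clock genes were in Npas2 (1.04 ± 0.43, 95% interval 0.15 to 1.93, adjusted p = 0.677) and Arntl (0.99 ± 0.38, 95% interval 0.20 to 1.77, adjusted p = 0.677). Arntl averaged 6.31 ± 1.48 CPM at 30 mg/kg and 3.18 ± 1.11 CPM at 15 mg/kg, with 1 library of 30 mg/kg inside the range of 15 mg/kg. For Per1 the interval was −0.96 to 0.54, for Per2 −0.33 to 0.83 and for Per3 −0.60 to 0.67. Clock differed by 0.53 between the doses (adjusted p = 0.677). So Arntl, Clock and Npas2 passed against cisplatin at 15 mg/kg and not at 30 mg/kg, while the test between the doses passed for none of the 3.

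Per kilobase of exon, the order of mean levels also shifted between groups. At 30 mg/kg Per1 (7.80 ± 2.32 CPM per kb) and Dbp (7.59 ± 9.27) led, and at 15 mg/kg Dbp (11.0 ± 8.09) and Per1 (9.03 ± 0.822). The place of Dbp leaned on the highest library of each dose (72.0 CPM at 30 mg/kg, 74.3 CPM at 15 mg/kg). Its median was 11.4 CPM against a mean of 22.7 CPM at 30 mg/kg, and 21.5 against 33.0 CPM at 15 mg/kg. In cisplatin Per1 stood at the top with 25.7 ± 21.9 CPM per kb, and the lowest were Npas2 (1.26 ± 0.582), Per3 (1.35 ± 0.709) and Arntl (1.37 ± 0.506). In control the highest were Dbp (11.4 ± 6.42 CPM per kb), Nr1d2 (9.85 ± 2.19) and Nr1d1 (9.59 ± 1.91), neighbours that lay within their spread of each other, and the lowest were Npas2 (0.658 ± 0.331) and Arntl (0.946 ± 0.62). Arntl (0.839 ± 0.196 CPM per kb at 30 mg/kg, 0.422 ± 0.148 at 15 mg/kg) and Npas2 (0.744 ± 0.409 and 0.361 ± 0.135) were lower than Clock (1.54 ± 0.746 and 1.07 ± 0.281) at both doses, and at 30 mg/kg the values of Arntl and of Npas2 overlapped with those of Clock within their SD.

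Animals of the same group also differed from each other in these genes. Deviations of log2 CPM from the group mean were correlated over the 20 libraries for all 45 pairs of the 10 genes, with permutation tests of 100000 shuffles within groups. Npas2 and Dbp ran opposite to each other, with Pearson's r = −0.83 (adjusted p = 0.00585, permutation) and Spearman's rho = −0.76 (adjusted p = 0.0171, permutation). Without the 2 libraries farthest from the median of Npas2, r was −0.73. In the 10 libraries of 7-HCG alone r was −0.90 and in the 10 of cisplatin and control −0.73. Per3 and Npas2 also ran opposite (r = −0.67, adjusted p = 0.0423, and rho = −0.71, adjusted p = 0.0329, both by permutation, and r = −0.64 without the 2 farthest libraries on Per3), but with library totals only r was 0.11. These 2 of 45 pairs passed on both measures, and 8 passed on r. The share of pairs that would pass among other genes was not measured, so these counts cannot be called particular to the clock. The others of the 8 were Dbp with Ciart (r = 0.69), Nr1d1 with Ciart (r = 0.68), Arntl with Npas2 (r = 0.60), Npas2 with Ciart (r = −0.59), Nr1d1 with Dbp (r = 0.58) and Per2 with Nr1d2 (r = 0.52). Clock and Arntl had r of −0.58 and −0.55 with Dbp, which passed on neither measure. Per1 and Nr1d1 had r = 0.65 in all libraries and −0.01 without cisplatin replicates 9 and 10. The libraries share depth and composition, which also enter these correlations. No clock hour of kidney collection is given for any animal, so the part of collection time in these correlations was not tested.

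**Figure D3:**
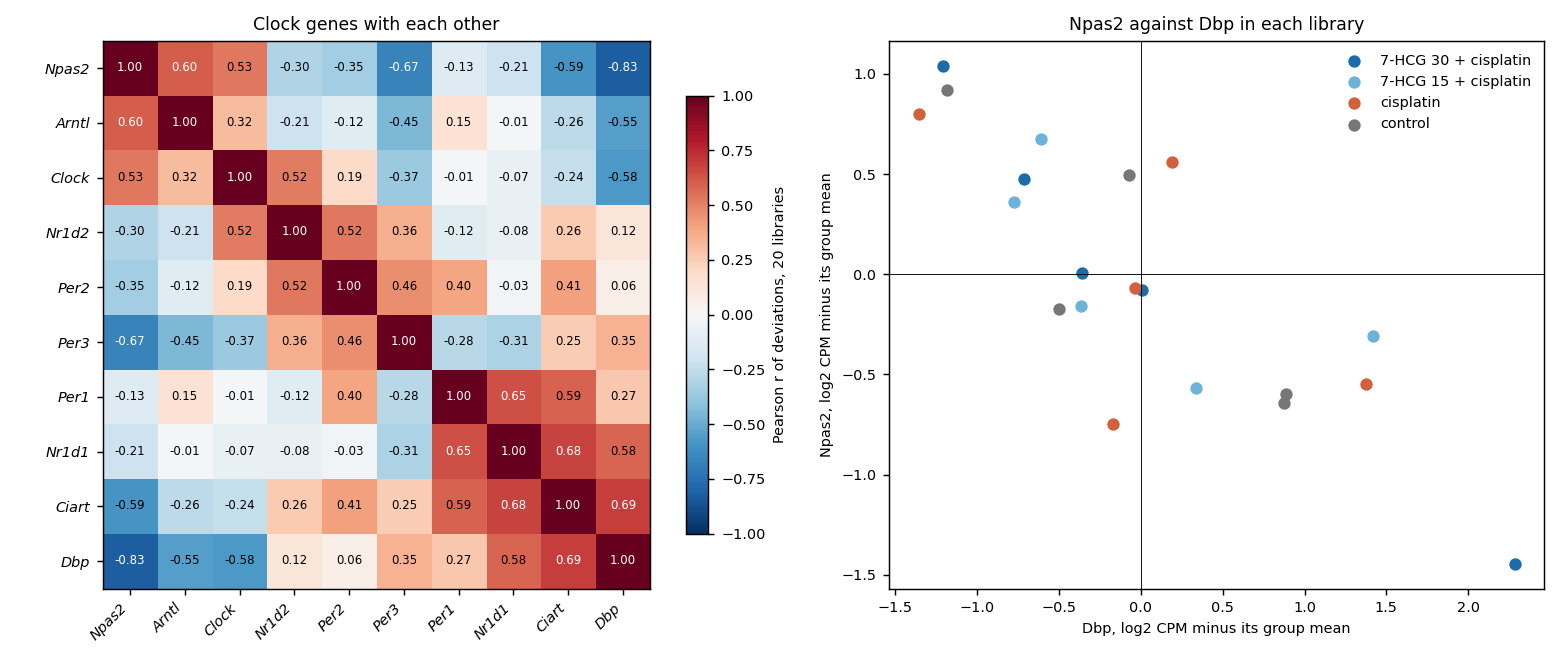
Left, Pearson's r of the deviations of log2 CPM from the group mean for each pair of clock genes over 20 libraries (colour scale from −1 to 1). Right, the deviation of Npas2 (vertical axis, log2) against that of Dbp (horizontal axis, log2) in each library, coloured by group, with libraries of all 4 groups in both the upper left and the lower right.

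By the same measure, described without a test, the 5 genes outside the 10 whose deviations were most like those of Arntl were Klf4 (r = 0.91), Taf4b (0.90), Prdm4 (0.88), Zfr (0.88) and Brd2 (0.86), over 20 libraries and with a median absolute r of 0.28 over all other genes. Those most like Dbp included Slc7a7 (0.92), Dpp7 (0.90), Ces1e (0.90) and Ass1 (0.89), with a median absolute r of 0.27. Slc7a7 is an amino acid transporter, and Ass1 is an enzyme of amino acid metabolism that the proximal tubule expresses. Cry1, which encodes a repressor that partners the period proteins, was the third lowest of all genes with Dbp (r = −0.88, and −0.53 with library totals only), and was singled out after its value was seen.

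Dbp was also set beside the tubular injury markers Lcn2, which encodes NGAL, and Havcr1, which encodes KIM-1. In the 30 mg/kg group, replicate 1 held 72.0 CPM of Dbp and 13.3 CPM of Lcn2, and the other 4 libraries 6.33 to 14.8 CPM of Dbp and 156 to 837 CPM of Lcn2. Havcr1 was 7.74 CPM in replicate 1 and 25.7 to 219.5 CPM in the other 4. At 15 mg/kg, replicates 3 and 1 held 74.3 and 35.0 CPM of Dbp with 9.83 and 40.4 CPM of Lcn2, and the other 3 libraries 16.2 to 21.5 CPM of Dbp with 269 to 651 CPM of Lcn2. Havcr1 was 4.96 and 30.4 CPM in replicates 3 and 1 and 107 to 126 CPM in the other 3, so replicate 1, low in Lcn2, lay above every control (0.691 to 5.8 CPM) and above cisplatin replicates 2, 9 and 10 (24.2, 4.49 and 3.88 CPM) in Havcr1. Krt20, the third marker read, was 0.187 CPM in 30 mg/kg replicate 1 and 0.465 and 3.89 CPM in 15 mg/kg replicates 3 and 1, against 4.90 to 58.8 CPM in cisplatin and 0.0957 to 9.04 CPM in control. Npas2 was lowest in the same libraries at each dose, with 1.10 CPM in 30 mg/kg replicate 1 and 1.32 and 1.09 CPM in 15 mg/kg replicates 3 and 1. In cisplatin, Lcn2 was 243 to 457 CPM with Dbp at 4.98 to 33.4 CPM, and replicate 10 held the highest Dbp of the group with the second highest Lcn2 (423 CPM). In control, Lcn2 was 5.04 to 44.4 CPM with Dbp at 12.9 to 54.5 CPM. Lcn2 rose against control at 30 mg/kg (4.11 ± 1.03, adjusted p = 0.00611), at 15 mg/kg (4.13 ± 1.03, adjusted p = 0.00396) and with cisplatin (4.32 ± 1.04, adjusted p = 0.0136). Summed proximal tubule markers were 10782 CPM in 30 mg/kg replicate 1 and 3352 to 5834 CPM in the rest of that group. At 15 mg/kg, replicates 3 and 1 held 7103 and 6654.5 CPM and the rest 3304 to 6492 CPM. Control replicates 7 and 8, highest in Dbp, held 5017 and 4707 CPM and the rest 1820 to 3054 CPM. Cisplatin replicate 10 held 3325 CPM and the rest 1387 to 2764 CPM. The part of the extent of injury, or of proximal tubule markers, in the clock gene values was not tested.

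**Figure D4:**
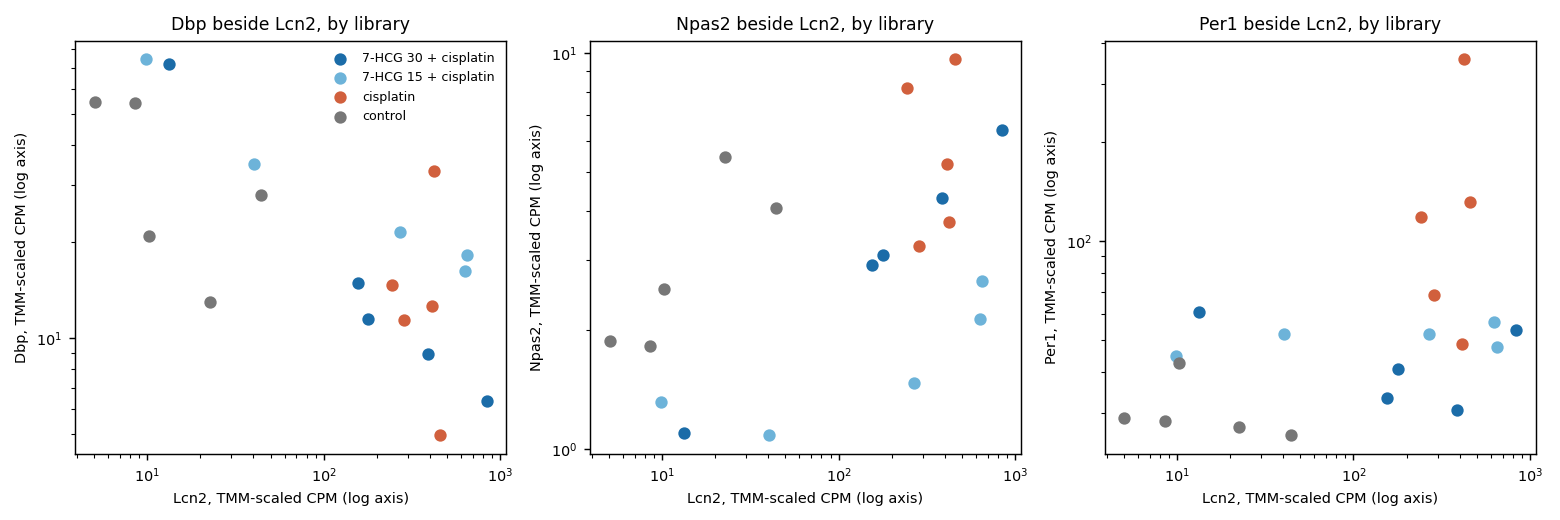
Dbp, Npas2 and Per1 (vertical log axes, TMM-scaled CPM) against Lcn2 (horizontal log axis, TMM-scaled CPM) in each of 20 libraries, coloured by group. The 3 libraries of 7-HCG with Lcn2 below 50 CPM hold 35.0 to 74.3 CPM of Dbp.

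Other components of the clock were read from a list of 19 genes. At 30 mg/kg against cisplatin 2 rose and 1 fell (median log2 fold change 0.00), at 15 mg/kg against cisplatin 1 rose and 5 fell (−0.39), at 30 mg/kg against control 5 rose and 3 fell (0.25), at 15 mg/kg against control 4 rose and 4 fell (−0.03), and in cisplatin against control 3 rose and none fell (0.11). Of all genes tested, 27.9%, 37.5%, 34.2%, 45.2% and 13.4% passed in these 5 comparisons, in the same order. In that order, 14.7%, 18.9%, 18.6%, 23.0% and 8.41% of all genes rose, and 13.2%, 18.6%, 15.6%, 22.2% and 5.01% fell. Nfil3, a repressor of D-box transcription, and Bhlhe40, a repressor of E-box transcription, rose against control in every group given cisplatin. For Nfil3 the 15 mg/kg libraries overlapped with control, with 8.52 CPM in 15 mg/kg replicate 3 and 10.1 CPM in control replicate 5. Nfil3 averaged 25.2 ± 7.33 CPM at 30 mg/kg, 19.9 ± 10.9 at 15 mg/kg, 31.0 ± 17.5 in cisplatin and 6.44 ± 2.97 in control, with rises against control of 1.96 ± 0.43 (adjusted p = 0.00229), 1.62 ± 0.42 (adjusted p = 0.00459) and 2.25 ± 0.43 (adjusted p = 0.00403). Bhlhe40 averaged 78.6 ± 28.5 CPM at 30 mg/kg, 60.7 ± 17.0 at 15 mg/kg, 91.2 ± 41.1 in cisplatin and 28.4 ± 4.87 in control, and no library of any cisplatin-treated group overlapped with control.

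Arntl2, a relative of Arntl, Timeless, a gene of the replication fork in mammals, and Csnk1e, a kinase that marks period proteins for breakdown, fell at 15 mg/kg against both cisplatin and control. Timeless also fell at 30 mg/kg against cisplatin, while there Arntl2 (−0.86, adjusted p = 0.118) and Csnk1e (−0.77, adjusted p = 0.0505) did not pass. Arntl2 fell at 15 mg/kg against cisplatin (−1.90 ± 0.42, adjusted p = 0.00201) and against control (−2.18 ± 0.42, adjusted p = 0.00053), to 0.395 ± 0.134 CPM at 15 mg/kg, against 1.5 ± 0.686 CPM in cisplatin and 1.83 ± 0.445 CPM in control. Both of its calls held in all 32 alternatives, while its fall at 30 mg/kg against control (−1.14 ± 0.40, adjusted p = 0.0337) was lost in 10. Timeless fell in all 4 comparisons of 7-HCG, at 2.98 ± 1.13 CPM at 30 mg/kg, 3.52 ± 0.809 at 15 mg/kg, 8.58 ± 5.57 in cisplatin and 7.67 ± 1.37 in control, with no overlap with either. Both of its calls against cisplatin were lost with library totals only and with a replicate block, and both against control held in all 32 alternatives. Csnk1e fell at 15 mg/kg against cisplatin (−1.24 ± 0.29, adjusted p = 0.00294) and against control (−1.24 ± 0.29, adjusted p = 0.00213). The call against cisplatin was lost with library totals only and with a replicate block. That against control was lost without control replicates 2 and 5, the libraries of high adipose markers. The fall of Csnk1e at 30 mg/kg against control was lost in 9 alternatives. Hlf, a PAR bZIP relative of Dbp, rose against cisplatin at 30 mg/kg (1.05 ± 0.28, adjusted p = 0.00872) and at 15 mg/kg (0.92 ± 0.28, adjusted p = 0.0128), and neither call held without cisplatin replicates 9 and 10. Of the F-box proteins that mark clock proteins for breakdown, Fbxw11 rose at 30 mg/kg against cisplatin (0.79 ± 0.20, adjusted p = 0.00736) and Btrc rose at 15 mg/kg against control (0.58 ± 0.18, adjusted p = 0.0114, lost in 4 alternatives). Cry1 and Cry2 passed in no comparison.

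**Figure D5:**
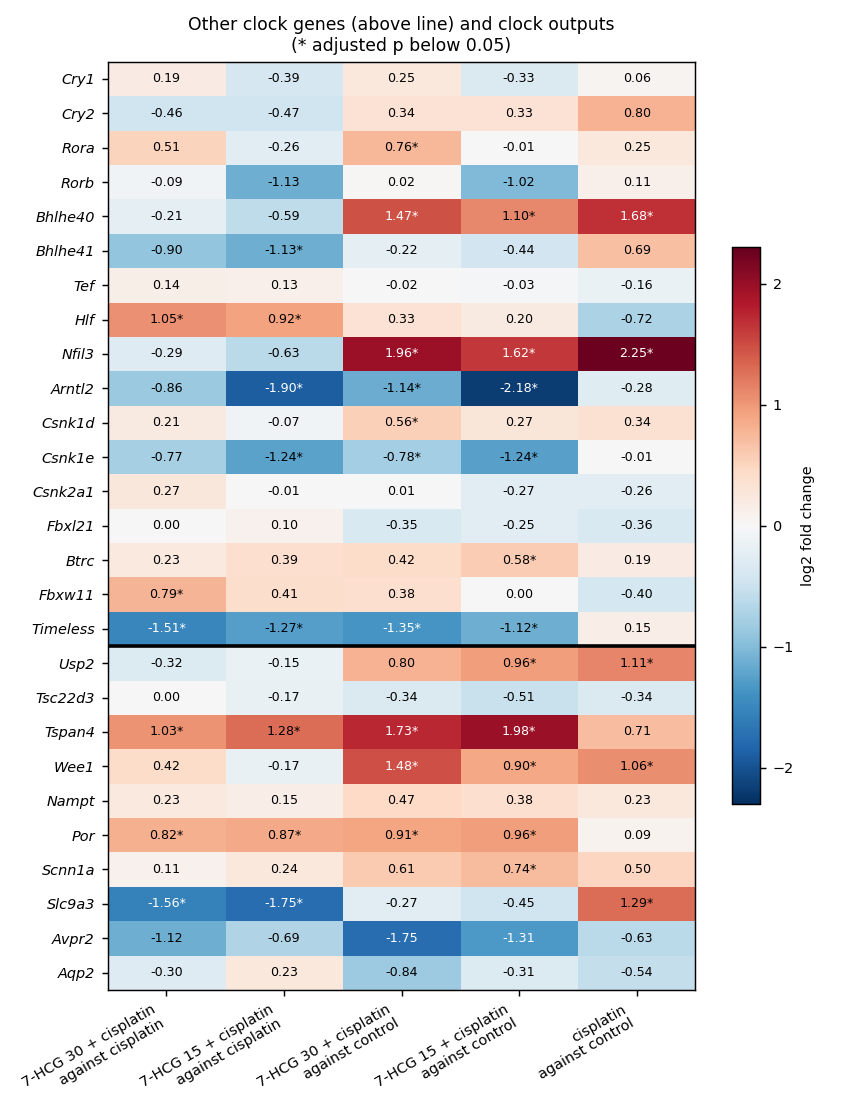
Log2 fold changes (colour and printed value) of 17 of the 19 other clock genes, above the line, and 10 clock outputs, below it, in 5 comparisons (columns). An asterisk marks an adjusted p below 0.05 in the edgeR fit, as for Nfil3 at 2.25 with cisplatin and Arntl2 at −2.18 at 15 mg/kg against control.

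A further list held 10 genes known as clock outputs in kidney or other tissue. At 30 mg/kg against cisplatin 2 rose and 1 fell, at 15 mg/kg against cisplatin 2 rose and 1 fell, at 30 mg/kg against control 3 rose, at 15 mg/kg against control 5 rose, and in cisplatin against control 3 rose, with none falling in the last 3. The shares of all genes that passed, rose or fell, given for the other clock genes, apply here as well. Tspan4, a tetraspanin, rose in all 4 comparisons of 7-HCG, at 121 ± 40.8 CPM at 30 mg/kg, 144 ± 63.2 at 15 mg/kg, 59.5 ± 21.7 in cisplatin and 36.4 ± 5.25 in control. Por, which encodes the electron donor of the cytochromes P450, rose against cisplatin by 0.82 ± 0.23 at 30 mg/kg (adjusted p = 0.0129) and by 0.87 ± 0.23 at 15 mg/kg (adjusted p = 0.0065), with no overlap at either dose. Slc9a3, the sodium-proton exchanger of the proximal tubule, fell against cisplatin by 1.56 ± 0.31 at 30 mg/kg (adjusted p = 0.00184) and by 1.75 ± 0.32 at 15 mg/kg (adjusted p = 0.000476), at 44.1 ± 9.57 and 38.8 ± 8.64 CPM against 130 ± 59.5 CPM in cisplatin. The 30 mg/kg call was lost with library totals only. Slc9a3 rose with cisplatin against control (1.29 ± 0.31, adjusted p = 0.0125, control 53.1 ± 21.7 CPM), a call lost in 6 alternatives, one of them without cisplatin replicates 9 and 10. Wee1, a kinase that holds cells before mitosis, rose against control at 30 mg/kg (1.48 ± 0.25, adjusted p = 0.000331), at 15 mg/kg (0.90 ± 0.24, adjusted p = 0.00583) and with cisplatin (1.06 ± 0.25, adjusted p = 0.0102, lost in 4 alternatives). Usp2 (1.11 ± 0.34 with cisplatin and 0.96 ± 0.34 at 15 mg/kg) and Scnn1a (0.74 ± 0.25 at 15 mg/kg) rose against control as well, and these calls were lost in 11, 5 and 6 alternatives.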

How the data were processed

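RNA of 20 whole mouse kidneys was read as polyadenylated mRNA with paired 150-base reads. Per the submitters' processing notes, FastQC, Trimmomatic, HISAT2, StringTie and DESeq2 were used, with genome build mm10 (GRCm38); for versions, the counting program and its strand setting, nothing is stated in the sources used here. The authors deposited raw read counts per gene and library, per the file headers, and these whole numbers were used as they stand. Coordinates are those of the deposited table, exon lengths are of GENCODE vM21, and promoter sequences are of RefSeq on GRCm38.p6.

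In R 4.3.3, edgeR 4.0.16 was run on the counts with its quasi-likelihood F-test and robust shrinkage, after TMM scaling and filterByExpr by group, with all 20 libraries in 1 fit (14858 genes, 16 residual degrees of freedom). P-values were adjusted by Benjamini-Hochberg over all genes tested, with a threshold of 0.05, and 95% intervals are from the same fit. Log2 CPM used a prior count of 2. Totals were 10714532 to 49602115 counts per library, and a level of 3 counts corresponds to 0.0605 to 0.28 CPM of the unscaled total, covering counting error only. Replicates of a group differed far beyond sampling noise (chi-square per degree of freedom 27.1 to 1816 over 40 pairs). The script was tested on simulated data. Alternatives were RLE factors, library totals only, no mitochondrial mRNAs, no low-count filter, DESeq2 1.42.0, limma 3.58.1 voom, no robust shrinkage, 2 groups only, a replicate block and left-out libraries.

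All 10 members were named in every comparison. Of 19 other clock genes and 10 outputs, up to 10 a list were named, by smallest adjusted p, and for Arntl and Dbp the 5 genes most like each; some of these are counted but not reported here by name. The members and lists were chosen with earlier results of these data known.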

Additional observations from a re-analysis of the deposited data

Results flagged for a closer look

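Among the 40 combinations of a clock gene and a group, 2 held 1 animal far from the other 4 on the log2 CPM scale, where chance alone flags about 1 group in 20, or 2 here. At 15 mg/kg, Nr1d1 in replicate 3 stood at 30.9 CPM and the other 4 animals at 13.1 to 16.4 CPM, a gap of 0.737 of the range of the group. In control, Per1 in replicate 1 stood at 42.7 CPM and the other 4 animals at 25.8 to 29.0 CPM, a gap of 0.769 of the range of the group. The 15 mg/kg animal also held the highest Dbp (74.3 CPM) and Ciart (3.36 CPM) of its group, and the control animal the highest Per2 (49.4 CPM) and Ciart (3.45 CPM) of its group.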

How the results depend on the processing

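Of the 60 values of the 10 clock genes, 16 passed the test, and all 16 kept their direction in the 32 alternatives. All 16 kept their call with RLE factors, without mitochondrial mRNAs, with no low-count filter, with DESeq2, with no robust shrinkage and with the 2 groups only. With limma voom 15 kept it, and 8 with library totals only, which put the median of all genes at −0.35 in cisplatin against control, 0.39 at 30 mg/kg and 0.23 at 15 mg/kg against cisplatin, and −0.14 at 15 mg/kg against control. Causes of the changes given here were not tested. Depth limits Ciart and Npas2 most, with as few as 17 and 30 counts in a library.

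Counts of calls moved as follows. In cisplatin against control (1 clock gene, 1994 of all genes), all genes called were 883 with library totals only, 1193 with the 2 groups only, 691 without cisplatin replicates 9 and 10, 292 without control replicates 2 and 5 and 592 without the 4 libraries of high adipose markers. With 30 mg/kg against cisplatin (2 clock genes, 4148), library totals only gave 1 and 1413, and 2222 genes passed without cisplatin replicates 9 and 10. At 15 mg/kg against cisplatin (5 clock genes, 5578), library totals only gave 2 and 2046, and DESeq2 gave 8 clock genes. With 30 mg/kg against control (3 clock genes, 5088), library totals only gave 0 and 2051, and 2748 genes passed without control replicates 2 and 5 and 2387 without the 4 libraries of high adipose markers. At 15 mg/kg against control (5 clock genes, 6709), all genes were 3102, 4216 and 3166 in the same settings, with 3 clock genes in the last. Between the doses DESeq2 called 1 gene. Library totals only also moved the split of higher and lower calls, which was 207 and 676 (1250 and 744 with TMM) in cisplatin against control, 1220 and 193 (2180 and 1968) at 30 mg/kg and 1537 and 509 (2811 and 2767) at 15 mg/kg against cisplatin, and 926 and 1125 (2771 and 2317) at 30 mg/kg and 1216 and 1886 (3411 and 3298) at 15 mg/kg against control.

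With each library left out in turn, clock genes called were 1 to 2 and all genes 829 to 2184 in cisplatin against control, 2 to 3 and 3155 to 4668 at 30 mg/kg and 5 to 8 and 4585 to 5829 at 15 mg/kg against cisplatin, 1 to 4 and 3873 to 5557 at 30 mg/kg and 4 to 7 and 5616 to 7138 at 15 mg/kg against control, and 0 to 0 and 0 to 2 between the doses.

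A replicate block was also fitted, although nothing in the labels says that a shared number pairs animals. Same-numbered libraries of different groups had correlations of −0.31 to 0.23 (median 0.002) over 15 pairs, 3 of them over 0.1. Differently numbered libraries had −0.49 to 0.42 (median −0.005) over 135 pairs, 39 of them over 0.1. The numbers were therefore not taken as pairs. With the block 9 of the 16 calls were kept. Clock genes called were 0 in cisplatin against control (17 of all genes), 1 at 30 mg/kg against cisplatin (310) and 1 at 15 mg/kg against cisplatin (1329). In the block the log2 fold change turned to −0.14 for Per3 and 0.19 for Nr1d1 between the doses, to −0.35 for Clock, −1.14 for Nr1d1 and −0.11 for Ciart in cisplatin against control, and for Nr1d1 against cisplatin to 0.40 at 30 mg/kg and 0.22 at 15 mg/kg.

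No value that changed sign passed the test in either setting. In cisplatin against control, library totals only gave −0.11 for Arntl, −0.37 for Clock, −0.61 for Nr1d1 and −0.11 for Ciart. Clock, at 0.0047 there, was −0.011 with RLE factors, −0.025 without mitochondrial mRNAs, −0.0015 with no low-count filter, −0.011 with DESeq2, −0.011 with limma voom, −0.020 with the 2 groups only and −0.018 without cisplatin replicates 9 and 10. Limma voom gave −0.30 for Nr1d1 and −0.030 for Ciart there, and at 30 mg/kg against control 0.0019 for Arntl and −0.0022 for Npas2. Without cisplatin replicates 9 and 10, Nr1d1 was −0.96 and Ciart −0.24 in cisplatin against control, and Nr1d1 was 0.16 at 30 mg/kg and 0.21 at 15 mg/kg against cisplatin. Arntl at 30 mg/kg against control was 0.63 without control replicates 2 and 5 and 0.54 without the 4 libraries of high adipose markers. Between the doses, Per3 was −0.010 with RLE factors and −0.010 with DESeq2, Nr1d1 was 0.078 with library totals only and 0.026 with limma voom, and Nr1d2 was −0.030 without the 4 libraries of high adipose markers.

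With each library left out, values that crossed 0 ranged, in cisplatin against control, over −0.061 to 0.040 for Clock, −0.50 to 0.49 for Nr1d1 and −0.17 to 0.76 for Ciart. Dbp at 30 mg/kg against cisplatin ranged over −0.55 to 1.08. Against control at 30 mg/kg, Arntl ranged over −0.37 to 0.24 and Npas2 over −0.14 to 0.47, and at 15 mg/kg against control Dbp over −0.58 to 0.20. Between the doses Per3 ranged over −0.13 to 0.24, Nr1d1 over −0.12 to 0.29, Dbp over −1.67 to 0.00084 and Ciart over −0.32 to 0.64. Alternatives for the correlations were chosen after the data were seen. Among the pairs examined, r turned to −0.013 for Per1 and Nr1d1 without cisplatin replicates 9 and 10, to 0.11 for Per3 and Npas2 with library totals only and to −0.32 for Clock and Nr1d2 (0.52 in all libraries) in the cisplatin and control libraries alone.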
